A study of Mus with 21 samples.

Results

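The genes described here are 41 genes of the cell cycle and of DNA replication, taken by symbol from the 18806 genes in the count tables. They are 23 genes of mitosis, 13 genes of DNA replication and 5 cyclins and transcription factors grouped here as G1/S genes. The 5 are Ccne1, Ccne2 and E2f1, of the step from G1 into S phase, and Foxm1 and Mybl2, which act on later genes. The samples were full-thickness skin wounds on the backs of female wild-type C57BL/6 mice aged 8 weeks. Each wound was 8 mm across and held open by a splint, and bulk mRNA was sequenced from wound tissue labelled Day 4. There were 7 groups with 3 biological replicates each, so 21 libraries in all. The control wounds received no hydrogel. The other 6 groups received a GelMA (gelatin methacryloyl) hydrogel adjusted to pH 6.4, 7.4 or 8.4 and loaded with 200 ng of aFGF (acidic fibroblast growth factor, Fgf1) or bFGF (basic fibroblast growth factor, Fgf2). They are called 6.4/aFGF, 7.4/aFGF, 8.4/aFGF, 6.4/bFGF, 7.4/bFGF and 8.4/bFGF. None of the groups analysed here received a hydrogel without growth factor, so the hydrogel and its growth factor cannot be told apart in the comparison with control.

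A cell that divides first licenses its replication origins, then copies its DNA in S phase and then separates the copies in mitosis. Cyclin E and E2F transcription factors drive the entry into S phase, and FOXM1 and MYBL2 switch on the genes of G2 and mitosis, whose transcripts peak late in the cycle. In a healing wound, dividing cells include keratinocytes at the margin, fibroblasts and endothelial cells of the granulation tissue, and some immune cells. In bulk tissue, fewer cycling cells and less of a transcript per cycling cell cannot be told apart.

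The libraries held 34362558 to 37817833 counts (median 36771838), and the smallest count of any of the 41 genes in any library was 167. All 41 genes passed the filter on low counts in every comparison. CPM values, used for single genes, are counts brought to a common library total. Keratin and collagen genes of skin were high in every group: the 7 basal keratinocyte markers summed to 1796 to 4462 CPM per library, and the 6 fibroblast markers to 32663 to 71594 CPM. Markers of other tissues were uneven. The 6 skeletal muscle markers, present in all groups, summed to 219 CPM in one 7.4/bFGF library and to 13222 CPM in one 6.4/aFGF library. Cartilage genes (321 CPM) and bone marrow granulocyte precursor genes (220 CPM) were high in 7.4/aFGF replicate 3, liver genes (187 CPM) in 8.4/aFGF replicate 2 and ovary genes (986 CPM) in 8.4/bFGF replicate 2. The results that rest on these 3 libraries are given with and without them.

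On the scale of FPKM (counts scaled by gene length and by library total), which allows levels of different genes to be compared, Pcna was the highest of the 41 with a median of 88.5 over the 21 libraries. Pcna encodes the sliding clamp that holds DNA polymerases on the template. Hmgb2, a chromatin protein of the high mobility group, followed at 38.1 FPKM and Ube2c, the ubiquitin-conjugating enzyme of the anaphase-promoting complex, at 32.6 FPKM. The lowest medians were those of Cdc6, which loads the replicative helicase (1.75 FPKM), and Cenpf, a kinetochore protein (1.22 FPKM). The median member stood at 11.1 FPKM, above 67.3% of all genes tested. Pcna, Hmgb2 and Tyms are among the members with processed pseudogenes in the mouse genome, and how reads shared with such copies were counted is not given in the sources used here.

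The genes varied about as much as other genes did. The highest library exceeded the lowest by 1.58-fold for Mcm4 to 3.05-fold for Plk1, with a median of 2.39-fold, against 2.32-fold over the 15811 genes tested. What set the members apart to the eye was that most of them were high or low in the same libraries. In 11 of the 41 genes the lowest of 21 values was in 7.4/bFGF replicate 1, and in 8 genes each it was in control replicate 2, 8.4/aFGF replicate 1 and 8.4/aFGF replicate 2. The highest value was in 6.4/bFGF replicate 3 for 11 genes, in 8.4/bFGF replicate 2 for 11, in 6.4/bFGF replicate 2 for 7 and in 6.4/bFGF replicate 1 for 6. So the 3 libraries of 6.4/bFGF held the maximum of 24 members.

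**Figure D1:**
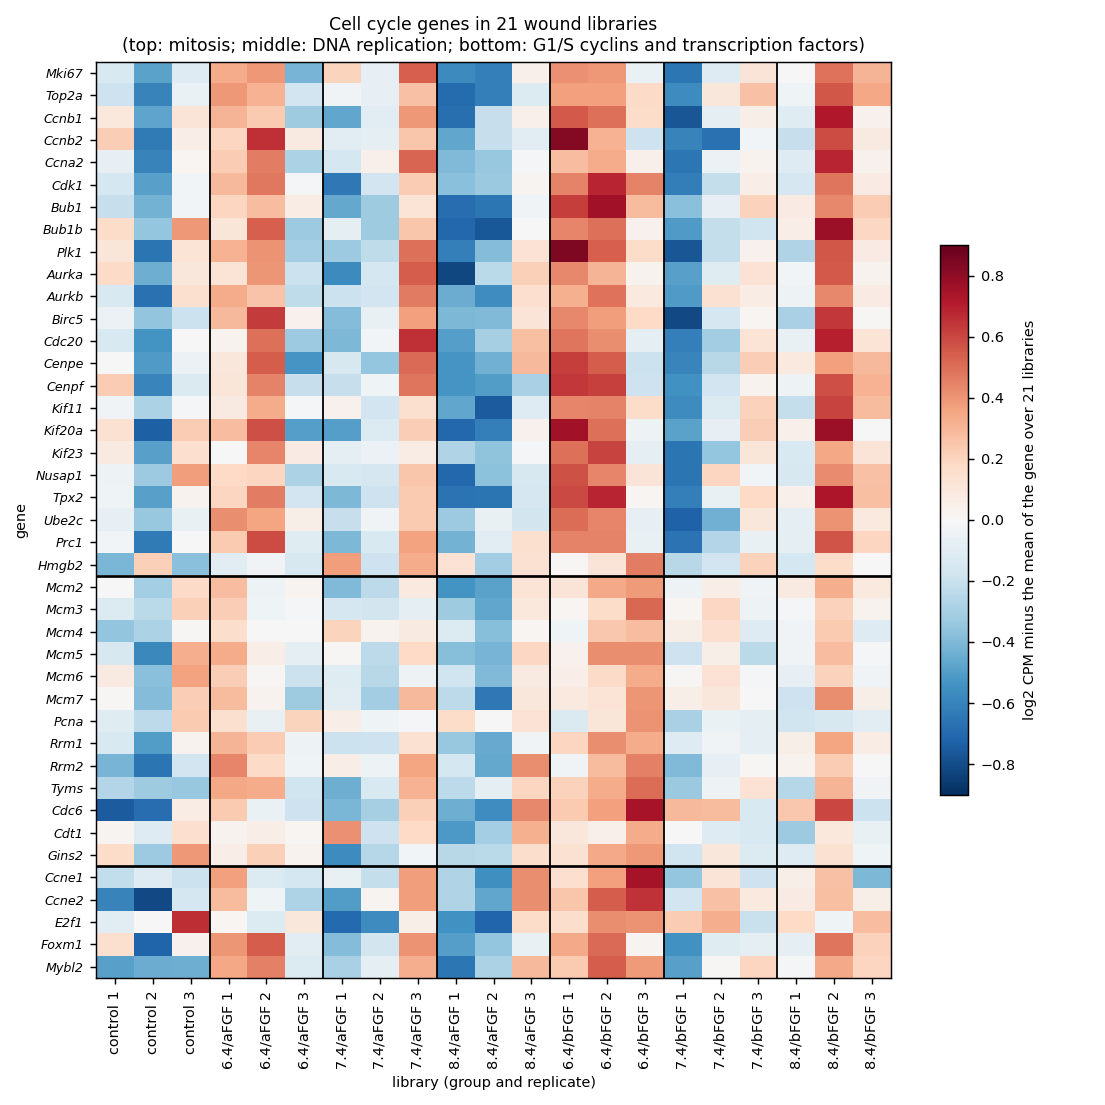
Heat map of the 41 genes (y axis, grouped from top to bottom as 23 mitosis genes, 13 DNA replication genes and 5 G1/S cyclins and transcription factors) in the 21 libraries (x axis, by group and replicate), coloured by log2 CPM minus the mean of the gene over all libraries. Whole columns are red or blue: 6.4/bFGF replicates 1 and 2 and 8.4/bFGF replicate 2 are red for most mitosis genes, and control replicate 2, 8.4/aFGF replicates 1 and 2 and 7.4/bFGF replicate 1 are blue. The columns of a group often differ from each other.

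The marker gene Mki67 encodes Ki-67, a protein that coats mitotic chromosomes and is used to mark cycling cells. Its level was 81.0, 63.8 and 82.4 CPM in control, 112.6, 116.9 and 66.8 in 6.4/aFGF, 102.6, 84.9 and 129.5 in 7.4/aFGF, and 59.9, 58.1 and 92.2 in 8.4/aFGF. With bFGF it was 118.3, 116.8 and 85.6 CPM at pH 6.4, 56.9, 82.4 and 96.7 at pH 7.4, and 88.9, 125.2 and 110.2 at pH 8.4. The means (± SD, n = 3) ran from 70.1 ± 19.2 CPM in 8.4/aFGF, 75.7 ± 10.3 in control and 78.7 ± 20.2 in 7.4/bFGF to 98.7 ± 27.8 in 6.4/aFGF, 105.7 ± 22.5 in 7.4/aFGF, 106.9 ± 18.4 in 6.4/bFGF and 108.1 ± 18.2 in 8.4/bFGF. Neighbours in this order differed by no more than their SDs, and all 3 libraries of 7.4/aFGF, of 6.4/bFGF and of 8.4/bFGF lay above the 3 of control.

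Top2a, the topoisomerase that untangles sister chromatids, gave 76.9, 57.7 and 83.8 CPM in control, 114.8, 108.7 and 77.4 in 6.4/aFGF, 85.7, 83.1 and 105.0 in 7.4/aFGF, and 54.1, 57.1 and 80.3 in 8.4/aFGF. It gave 112.8, 113.2 and 98.4 CPM in 6.4/bFGF, 59.2, 93.7 and 104.9 in 7.4/bFGF, and 85.3, 129.0 and 111.4 in 8.4/bFGF. The 3 libraries of 8.4/aFGF lay below all 3 of 7.4/aFGF and all 3 of 8.4/bFGF. Cdk1, the kinase that starts mitosis, stood at 39.8, 31.7 and 43.7 CPM in control, 54.4, 61.7 and 43.9 in 6.4/aFGF, 28.4, 39.4 and 52.0 in 7.4/aFGF, 34.2, 35.2 and 45.1 in 8.4/aFGF, 60.4, 71.4 and 60.5 in 6.4/bFGF, 28.9, 38.2 and 46.3 in 7.4/bFGF, and 40.0, 62.0 and 46.8 in 8.4/bFGF. The lowest library of 6.4/bFGF, at 60.4 CPM, was exceeded in the other groups by 2 libraries, 1 of 6.4/aFGF and 1 of 8.4/bFGF.

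Ccnb1 encodes cyclin B1, the partner of CDK1. It stood at 30.2, 20.3 and 30.6 CPM in control, 34.8, 33.3 and 22.6 in 6.4/aFGF, 20.4, 26.2 and 37.0 in 7.4/aFGF, 17.6, 24.4 and 29.1 in 8.4/aFGF, 41.3, 39.7 and 31.6 in 6.4/bFGF, 16.6, 26.6 and 29.3 in 7.4/bFGF, and 26.1, 46.4 and 29.0 in 8.4/bFGF. Foxm1, the transcription factor of the mitotic genes, was at 23.8, 13.1 and 22.2 CPM in control, 28.4, 31.5 and 20.2 in 6.4/aFGF, 16.5, 19.2 and 28.6 in 7.4/aFGF, 15.3, 17.0 and 20.6 in 8.4/aFGF, 27.4, 30.8 and 22.0 in 6.4/bFGF, 14.8, 20.1 and 20.4 in 7.4/bFGF, and 20.4, 30.2 and 25.0 in 8.4/bFGF. Both genes were higher in every library of 6.4/bFGF than in any of 7.4/bFGF.

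Among the replication genes, Mcm5 encodes a subunit of the MCM helicase that opens the double helix. It measured 42.7, 31.6 and 59.3 CPM in control, 59.4, 49.3 and 44.7 in 6.4/aFGF, 47.5, 40.2 and 53.6 in 7.4/aFGF, 36.2, 35.4 and 53.7 in 8.4/aFGF, 48.4, 63.3 and 63.3 in 6.4/bFGF, 41.4, 48.9 and 40.0 in 7.4/bFGF, and 46.2, 57.3 and 47.0 in 8.4/bFGF. The control libraries alone spanned most of the range. Rrm2, the regulated subunit of ribonucleotide reductase, which makes the DNA precursors, measured 27.8, 23.6 and 33.0 CPM in control, 50.4, 42.0 and 36.2 in 6.4/aFGF, 38.7, 36.0 and 47.6 in 7.4/aFGF, 33.4, 27.0 and 49.8 in 8.4/aFGF, 36.3, 45.3 and 51.0 in 6.4/bFGF, 28.2, 35.3 and 37.4 in 7.4/bFGF, and 38, 43.5 and 37.2 in 8.4/bFGF. Of the 18 hydrogel libraries, 16 were above the highest control library, the exceptions being 1 of 8.4/aFGF and 1 of 7.4/bFGF.

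Pcna did not follow this pattern. It measured 104.2, 95.6 and 132.4 CPM in control, 124.3, 107.6 and 129.5 in 6.4/aFGF, 117.4, 109.5 and 110.8 in 7.4/aFGF, 126.3, 112.3 and 123.0 in 8.4/aFGF, 103.0, 121.5 and 148.9 in 6.4/bFGF, 91.7, 107.7 and 105.8 in 7.4/bFGF, and 99.3, 101.7 and 105.1 in 8.4/bFGF. Its mean in 8.4/aFGF (120.5 ± 7.35 CPM) was above that in 8.4/bFGF (102.0 ± 2.96 CPM), whereas Top2a had means of 63.8 ± 14.3 and 108.6 ± 22.0 CPM in the same groups.

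Ccne1 encodes cyclin E1, which activates CDK2 at the entry into S phase. It measured 9.30, 10.0 and 9.48 CPM in control, 14.0, 9.93 and 9.69 in 6.4/aFGF, 10.3, 9.32 and 14.1 in 7.4/aFGF, 8.96, 7.37 and 14.5 in 8.4/aFGF, 12.0, 14.0 and 18.2 in 6.4/bFGF, 8.52, 11.8 and 9.52 in 7.4/bFGF, and 11.2, 13.0 and 8.17 in 8.4/bFGF. E2f1, the founding E2F factor, measured 21.8, 23.4 and 37.0 CPM in control, 23.7, 21.4 and 25.0 in 6.4/aFGF, 14.3, 15.7 and 24.2 in 7.4/aFGF, 16.0, 14.2 and 26.2 in 8.4/aFGF, 26.0, 31.2 and 31.0 in 6.4/bFGF, 27.3, 29.3 and 20.3 in 7.4/bFGF, and 26.4, 22.7 and 28.3 in 8.4/bFGF. The highest E2f1 value was in a control library and the highest Ccne1 value in a 6.4/bFGF library.

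**Figure D2:**
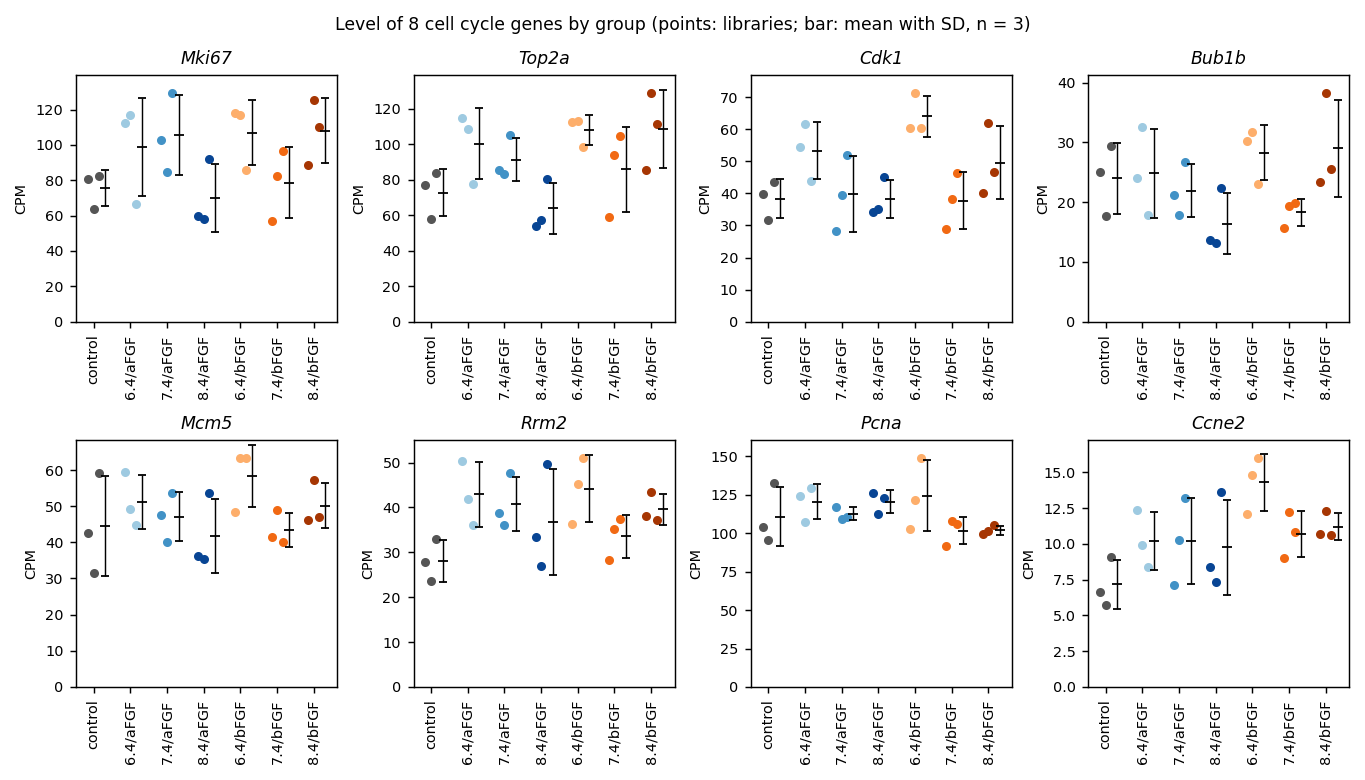
Level in CPM (y axis, from 0) of 8 of the genes in the 7 groups (x axis); each point is 1 library and the bar beside it is the mean with the SD (n = 3). The 6.4/bFGF libraries lie at 60.4 CPM or above for Cdk1, Pcna shows a flat profile with means of 101.7 to 124.5 CPM, and most groups overlap for most genes.

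Averaged over the 23 mitosis genes, the groups ranked from 8.4/aFGF (mean log2 CPM 4.49 ± 0.29, SD, n = 3) through 7.4/bFGF (4.57 ± 0.35), control (4.64 ± 0.28), 7.4/aFGF (4.79 ± 0.31), 6.4/aFGF (4.94 ± 0.30) and 8.4/bFGF (5.00 ± 0.32) to 6.4/bFGF (5.14 ± 0.25). For the 13 replication genes the order was 8.4/aFGF (5.07 ± 0.29), control (5.09 ± 0.26), 7.4/aFGF (5.17 ± 0.16), 7.4/bFGF (5.20 ± 0.08), 8.4/bFGF (5.28 ± 0.17), 6.4/aFGF (5.31 ± 0.15) and 6.4/bFGF (5.48 ± 0.17). Steps between neighbours were of the size of the SDs or smaller. Both lists placed 6.4/bFGF highest and 8.4/aFGF lowest.

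Single libraries could be high for one stage of the cycle and not for the other. In 6.4/bFGF replicate 3 the replication genes reached 5.65, the highest mean log2 CPM of the 21 libraries, while its mitosis genes averaged 4.86. In 7.4/bFGF replicate 1 the mitosis genes were the lowest of all (4.20) and the replication genes stood at 5.14. In 8.4/bFGF replicate 2 the mitosis genes were the highest (5.34) beside replication genes at 5.48.

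**Figure D3:**
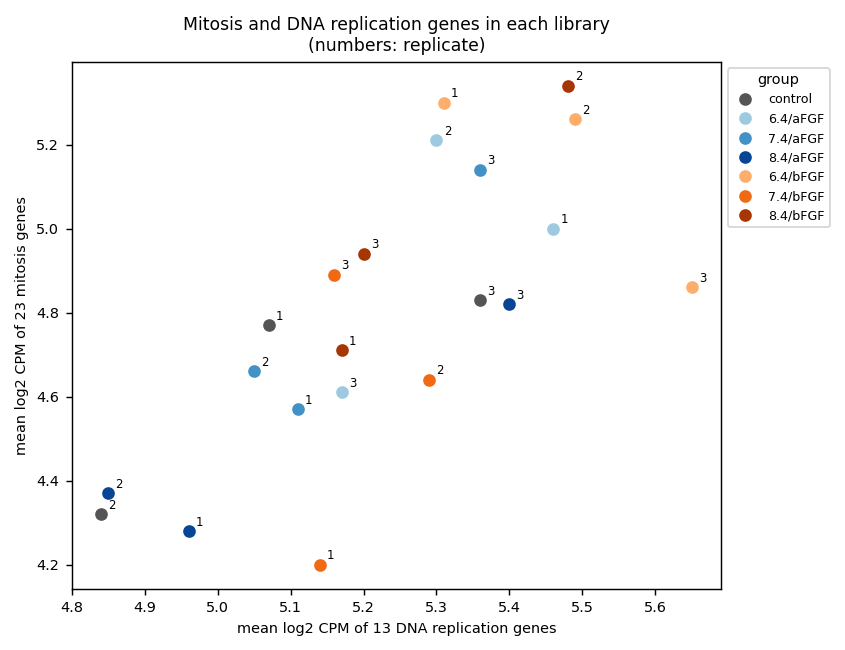
Mean log2 CPM of the 23 mitosis genes (y axis) against that of the 13 DNA replication genes (x axis) in each of the 21 libraries, coloured by group and numbered by replicate. Libraries low on both axes include 8.4/aFGF replicates 1 and 2 and control replicate 2, and 6.4/bFGF replicate 3 lies at the far right (5.65) with mitosis genes at 4.86.

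The genes were also compared with each other. Over the 21 libraries, the median Spearman correlation was 0.83 among the 253 pairs of mitosis genes (0.03 to 0.98), 0.64 among the 78 pairs of replication genes (0.07 to 0.90) and 0.54 among the 299 pairs of a mitosis and a replication gene (-0.16 to 0.92). These are descriptions of libraries that share groups and sequencing, and carry no test. The members that followed the mitosis genes least were Pcna (median correlation 0.02 with the mitosis genes), Hmgb2 (0.21) and E2f1 (0.21). Foxm1, with 0.88, and Mybl2, with 0.78, followed them closely although they are counted here with the G1/S genes, and so did the ribonucleotide reductase gene Rrm1 (0.80).

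The log2 CPM of Mki67 was set against that of 11 other genes over the 21 libraries, with permutation tests and adjustment over the 11 pairs. It correlated with Top2a at Pearson r = 0.93 and Spearman rho = 0.90 (adjusted permutation p = 0.00011 for both, from the smallest p that 100000 permutations can give, 1e-05). With Mcm5, r was 0.67 and rho 0.63 (adjusted permutation p = 0.00539 and 0.0169). For Ccne1, r was 0.54 and rho 0.61 (adjusted permutation p = 0.0455 and 0.0169), and r fell to 0.39 without 7.4/bFGF replicate 1 and 8.4/aFGF replicate 2, the libraries farthest from the median of Mki67, so this relation rested partly on them. Without the same libraries r was 0.90 for Top2a and 0.61 for Mcm5. After the group means were removed r was 0.94 for Top2a, 0.56 for Mcm5 and 0.44 for Ccne1.

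The other 8 pairs did not pass the adjusted threshold. Mki67 had r = 0.01 and rho = -0.06 with Pcna, r = 0.04 and rho = 0.02 with the cyclin D1 gene Ccnd1, and r = 0.00 and rho = 0.10 with the p21 gene Cdkn1a. The basal keratinocyte keratin Krt14 gave r = -0.07 and rho = 0.07, the leukocyte gene Ptprc r = -0.12 and rho = -0.13, and the neutrophil gene S100a8 r = 0.19 and rho = 0.22. The collagen gene Col1a1 gave r = 0.48 and rho = 0.38 (adjusted permutation p = 0.0716 and 0.206), and the skeletal muscle actin gene Acta1 r = -0.43 and rho = -0.39 (0.11 and 0.206).

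Differences between groups were tested with the edgeR quasi-likelihood test. A gene was called if its Benjamini-Hochberg adjusted p over all genes tested was below 0.05 and its log2 fold change was larger than 0.58 in either direction. None of the 41 genes was called in any of the 12 comparisons, so the counts and values that follow describe directions and sizes that did not pass that threshold. Several comparisons share libraries, as those against 7.4/bFGF do, and are not independent of each other. Nor are the members: pairs of mitosis genes had a median Spearman correlation of 0.83 across the libraries. A count of members in the same direction is therefore not a count of separate results. The share over all genes is given for the main edgeR fits. For DESeq2 calls, and for counts below 0.05 in alternative fits, it is not given here. Those counts are therefore not read as a result about the members.

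The first comparison asked whether wounds with a hydrogel differed from control wounds. The mean of the 6 hydrogel groups was higher than control for 35 of the 41 genes, with a median log2 fold change of 0.20, against -0.02 over all genes tested, of which 46.6% were higher. The groups overlapped for all 41 genes, as for most genes: 0.607% of all genes did not overlap. edgeR called 0.00632% of all genes, and 6 of the 41 had an unadjusted p below 0.05, against 16.7% of all genes, a share close to that among the members. DESeq2 called none of the members either.

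Those with the smallest p were Rrm2 (log2 fold change 0.49 ± 0.16, SE, adjusted p = 0.183 in edgeR), Ccne2 (0.61 ± 0.20, adjusted p = 0.183) and Mybl2 (0.56 ± 0.19, adjusted p = 0.184). Ccne2, the second cyclin E gene, stood at 6.67, 5.75 and 9.09 CPM in control and averaged 9.77 ± 3.33 CPM in 8.4/aFGF to 14.3 ± 2.01 CPM in 6.4/bFGF. Mybl2, which acts with FOXM1 on mitotic genes, stood at 7.09, 7.30 and 7.33 CPM in control and averaged 8.91 ± 3.01 CPM in 8.4/aFGF to 13.1 ± 1.41 CPM in 6.4/bFGF. The 13 replication genes had a median of 0.06 and the 23 mitosis genes a median of 0.20, and the members with the largest log2 fold changes were Ccne2, Mybl2, Cdc6 (0.51) and Rrm2.

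How many genes were higher depended on which control library was left out. Without control replicate 1, 34 genes were higher and the median was 0.25. Without control replicate 2, in which 8 of the members were at their lowest, 22 genes were higher and the median was 0.06, and 2 genes had an unadjusted p below 0.05. Without control replicate 3 all 41 were higher with a median of 0.28. Markers of other cell types moved in the same comparison: the 5 neutrophil genes were all higher with hydrogel (median 0.90; 710 to 7833 CPM in control and 2873 to 12200 CPM with hydrogel), and the 6 T and NK cell genes were all lower (median -0.71; 16.0 to 45.6 CPM in control and 7.64 to 109 CPM with hydrogel). The 4 adipocyte genes were all lower (median -1.49; 122 to 2006 CPM in control and 76.8 to 1157 CPM with hydrogel), as were the 5 hair follicle matrix genes tested (median -0.63), and the 5 wound keratinocyte genes were all higher (median 0.41; 2145 to 2967 CPM in control and 1960 to 4403 CPM with hydrogel). Their part in the result was not tested.

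Genes that restrain or start the cycle were examined from lists beside the 41. Of 19 cell cycle inhibitors 10 were higher and 9 lower with hydrogel, and of 11 G1 cyclins and kinases 5 were higher and 6 lower. Cdkn2b encodes p15, an inhibitor of the kinases CDK4 and CDK6. It stood at 5.82, 4.75 and 6.20 CPM in control, averaged 2.20 ± 0.39 to 2.91 ± 0.928 CPM in the 3 aFGF groups and averaged 3.83 ± 0.244 to 4.40 ± 0.89 CPM in the 3 bFGF groups (log2 fold change -0.79 ± 0.18, adjusted p = 0.103 in edgeR). The repressor E2f7 stood at 6.06, 5.32 and 10.2 CPM in control and averaged 10.7 ± 0.875 to 13.2 ± 1.24 CPM with hydrogel (0.71 ± 0.19, adjusted p = 0.126). For Ccnd1 the log2 fold change was -0.42 ± 0.16 (adjusted p = 0.215), and for Cdkn1a, which ran from 94.3 to 397.2 CPM among the 3 control libraries alone, it was 0.10 ± 0.35 (adjusted p = 0.909).

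The study's main hydrogel was 6.4/aFGF. Against the mean of the other 6 groups, 37 of the 41 genes were higher, with a median log2 fold change of 0.13 (all genes: 0.01, 52.6% higher). None had an unadjusted p below 0.05, against 5.66% of all genes, and neither edgeR (0% of all genes) nor DESeq2 called a member. None lay outside the range of the other groups, against 0.152% of all genes. The smallest p belonged to Ube2c (0.31 ± 0.15, adjusted p = 0.876), to Birc5, the survivin subunit of the chromosomal passenger complex (0.37 ± 0.19, adjusted p = 0.888), and to Foxm1 (0.33 ± 0.19, adjusted p = 0.903). Ube2c measured 41, 39.3 and 31.9 CPM in 6.4/aFGF.

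The 6.4/aFGF libraries themselves were split. Replicates 1 and 2 had mitosis genes at 5.00 and 5.21 mean log2 CPM, and replicate 3 at 4.61. Replicate 3 also held 13222 CPM of the skeletal muscle markers against 727 and 826 CPM in the others. Its part in the difference between these libraries was not tested. Without replicate 3 the median was 0.26 with 5 genes at an unadjusted p below 0.05, without replicate 2 it was 0.05 and without replicate 1 it was 0.10. The count below 0.05 was also 3 without 7.4/aFGF replicate 3, 2 without 8.4/bFGF replicate 2 and 1 without 8.4/aFGF replicate 3, 6.4/bFGF replicate 1 or 7.4/bFGF replicate 3. Without the 3 libraries that hold cartilage, liver and ovary genes, 39 of the 41 genes were higher, the median was 0.18 and 4 genes were below 0.05. The 7 basal keratinocyte genes (median 0.24), the 5 wound keratinocyte genes (median 0.18) and the 6 endothelial genes (median 0.23) were all higher in 6.4/aFGF and the 6 T and NK cell genes all lower (median -0.21), and their part in the result was not tested.

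The comparison of 6.4/aFGF with 7.4/aFGF asked what the acidic hydrogel changed with the same growth factor. Of the 41 genes 33 were higher at pH 6.4 (all genes: 52.4%), with a median log2 fold change of 0.13, and none had an unadjusted p below 0.05 (all genes: 4.99%). edgeR called 0% of all genes and DESeq2 called no member. Gins2 and Mcm3 did not overlap between the groups, 2 of 41, against 10.9% of all genes. Gins2, a subunit of the GINS complex of the active helicase, measured 15.8, 17.7 and 15.5 CPM at pH 6.4 and 10.2, 12.7 and 15.0 CPM at pH 7.4 (log2 fold change 0.37 ± 0.19, adjusted p = 0.832). The helicase subunit Mcm3 measured 60.0, 50.1 and 50.9 CPM against 46.3, 45.9 and 48.3 CPM (0.19 ± 0.11, adjusted p = 0.832). Bub1, a kinase of the spindle checkpoint, gave 0.37 ± 0.20 (adjusted p = 0.832).

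One library weighed on this comparison. Without 7.4/aFGF replicate 3, the library with cartilage and bone marrow precursor genes, 38 of the 41 genes were higher, the median was 0.35 and 9 genes had an unadjusted p below 0.05. In that library Mki67 was at 129.5 CPM, the highest of all 21. The median was 0.25 without 6.4/aFGF replicate 3, and 0.05, 0.08 and 0.07 without 6.4/aFGF replicate 2, 6.4/aFGF replicate 1 and 7.4/aFGF replicate 2, the last with 1 gene below 0.05. Of the 7.4/aFGF libraries, replicate 1 alone was high in T and NK cell genes (mean log2 CPM 4.06, against 1.28 and 1.20 in replicates 2 and 3). Among the marker genes, all 6 of T and NK cells (median -1.70; 7.64 to 19.1 CPM at pH 6.4 and 15.5 to 109 CPM at pH 7.4) and all 7 of bone marrow granulocyte precursors (median -2.80) were lower at pH 6.4. All 4 of adipocytes (median 0.82; 276 to 930 CPM against 179 to 532 CPM), all 6 of endothelium (median 0.40; 512 to 958 CPM against 614 to 698 CPM) and all 6 of fibroblasts (median 0.26; 39446 to 51614 CPM against 35720 to 41980 CPM) were higher. Their part in the result was not tested.

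In 8.4/aFGF the genes were lower than in 7.4/aFGF in 36 of 41 cases, with a median log2 fold change of -0.23, against 0.00 over all genes, 49.8% of which were higher. All 23 mitosis genes were lower (median -0.30), and 9 of the 13 replication genes (median -0.11). An unadjusted p below 0.05 was found for 3 of the 41 (all genes: 3.01%), edgeR called 0% of all genes and DESeq2 no member, and 4 genes, Top2a, Ccnb2, Cenpf and Mcm4, did not overlap (all genes: 8.61%). Top2a, given above for every library, had a log2 fold change of -0.53 ± 0.19 (adjusted p = 1 in edgeR). Cenpf measured 10.1, 10.3 and 11.9 CPM at pH 8.4 and 12.6, 14.2 and 20.3 CPM at pH 7.4 (-0.56 ± 0.22, adjusted p = 1), and Mki67 gave -0.61 ± 0.24 (adjusted p = 1).

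This direction did not hold without certain libraries. Without 7.4/aFGF replicate 3, 18 of the 41 genes were higher and the median was -0.02, and without the 3 libraries that hold cartilage, liver and ovary genes, 28 were higher and the median was 0.07. It was -0.13 and -0.14 without 8.4/aFGF replicates 1 and 2, and -0.41 with 8 genes at an unadjusted p below 0.05 without 8.4/aFGF replicate 3. No gene was below 0.05 without 7.4/aFGF replicate 3, 8.4/aFGF replicate 1 or 8.4/aFGF replicate 2. Within 7.4/aFGF, the T and NK cell genes were high in replicate 1 alone (mean log2 CPM 4.06, against 1.28 and 1.20 in replicates 2 and 3). The 6 T and NK cell genes were all lower at pH 8.4 (median -1.85; 10.8 to 14.2 CPM against 15.5 to 109 CPM), as were the 6 bone marrow granulocyte precursor genes tested (median -2.29), and the 5 neutrophil genes were all higher (median 0.62; 4091 to 10333 CPM against 4354 to 6235 CPM). Their part in the result was not tested.

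The most uniform comparison was that of 6.4/bFGF with 7.4/bFGF. All 41 genes were higher at pH 6.4, with log2 fold changes of 0.15 to 0.84 and a median of 0.47, against a median of 0.01 over all genes, 51.2% of which were higher. The median was 0.62 for the 23 mitosis genes, 0.49 for the 5 G1/S genes (Foxm1 and Mybl2 included) and 0.31 for the 13 replication genes. There were 22 of the 41 genes with an unadjusted p below 0.05, against 8.89% of all genes, and 16 that did not overlap between the groups, against 15.3% of all genes. Those were Ccnb1, Ccna2, Cdk1, Bub1, Bub1b, Plk1, Birc5 and Prc1 of mitosis, Mcm2, Rrm1, Tyms, Cdt1 and Gins2 of replication, and Ccne1, Foxm1 and Mybl2. The adjusted p was not below 0.542 for any member in edgeR, which called 0% of all genes, and DESeq2 called 1 member, Cdk1. The share of all genes that DESeq2 called is not given here, so this call is not read as a result about the members.

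Cdk1 had the smallest p, with a mean of 64.1 ± 6.34 CPM at pH 6.4 and 37.8 ± 8.74 CPM at pH 7.4 (log2 fold change 0.79 ± 0.18, adjusted p = 0.542 in edgeR; 0.77 ± 0.21, adjusted p = 0.0317 in DESeq2). Rrm1, the large subunit of ribonucleotide reductase, measured 98.7, 115.0 and 108.7 CPM against 79.5, 84.4 and 81.1 CPM (0.42 ± 0.09, adjusted p = 0.542). Bub1b, the checkpoint protein BUBR1, measured 30.3, 31.7 and 23.0 CPM against 15.7, 19.3 and 19.8 CPM (0.66 ± 0.16, adjusted p = 0.542). In each of these genes the lowest library at pH 6.4 exceeded the highest at pH 7.4.

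Related genes outside the 41 were measured in the same libraries, so their counts add no independent support. Of 49 other mitosis genes 48 were higher in 6.4/bFGF, with a median of 0.52 and 25 at an unadjusted p below 0.05, and all 32 other replication genes were higher, with a median of 0.33 and 9 below 0.05. Of 11 G1 cyclins and kinases 9 were higher (median 0.23), and of 19 inhibitors 13 (median 0.03). Cdkn1a (0.46 ± 0.41, adjusted p = 0.742) and Ccnd1 (0.19 ± 0.19, adjusted p = 0.759) did not pass the test.

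All 41 genes stayed higher when any of the 6 libraries was left out, with medians of 0.34 (without 7.4/bFGF replicate 1) to 0.57 (without 7.4/bFGF replicate 3). The number with an unadjusted p below 0.05 was 5 without 6.4/bFGF replicate 2, 9 without 7.4/bFGF replicate 1 and 12 without 6.4/bFGF replicate 1, and 26 without 7.4/bFGF replicate 3. The groups also differed in other tissue markers. The 6 skeletal muscle genes were all lower in 6.4/bFGF (median -1.95; 1487 to 2232 CPM against 219, 10924 and 11153 CPM), the 4 erythroid genes were all lower (median -1.53), the 4 adipocyte genes were all lower (median -1.51; 76.8 to 309 CPM against 151 to 1157 CPM), and the 6 endothelial genes were all higher (median 0.44; 513 to 1173 CPM against 434 to 954 CPM). A fit over all 21 libraries gave a median of 0.44 with 18 genes at an unadjusted p below 0.05, and the same fit with a skeletal muscle score as a covariate gave 0.42 with 17, with 41 of 41 genes higher in both. The covariate does not separate muscle content, which differed between these groups, from treatment. The part of the skeletal muscle, erythroid, adipocyte and endothelial genes in the result was not tested.

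With the same reference group, 8.4/bFGF was higher than 7.4/bFGF for 41 of 41 genes, where 50% of all genes were higher. The median was 0.35, with 0.47 for mitosis and 0.09 for replication genes (all genes: 0.00). Fewer genes reached an unadjusted p below 0.05, 5 of 41 (all genes: 5.72%), and 4 did not overlap, Bub1b, Mcm2, Rrm1 and Foxm1 (all genes: 11.8%). edgeR called 0% of all genes and DESeq2 no member. Bub1b measured 23.3, 38.3 and 25.5 CPM at pH 8.4 (log2 fold change 0.69 ± 0.21, adjusted p = 0.861). Prc1, which bundles microtubules between the separating chromosomes, gave 0.59 ± 0.21 (adjusted p = 0.861), and Cenpf, at 14.1, 21.9 and 18.2 CPM against 9.95, 12.9 and 14.9 CPM, gave 0.55 ± 0.21 (adjusted p = 0.861).

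Without 8.4/bFGF replicate 2, the library with ovary genes, the median was 0.19, 33 of the 41 were higher and 1 gene had an unadjusted p below 0.05. Without 7.4/bFGF replicate 1 the median was 0.21 and no gene was below 0.05. The number below 0.05 was 12 without 7.4/bFGF replicate 3, 10 without 8.4/bFGF replicate 1, 2 without 7.4/bFGF replicate 2 and 1 without 8.4/bFGF replicate 3. The 7 basal keratinocyte genes were all higher in 8.4/bFGF (median 0.42; 3173 to 4462 CPM against 1796 to 3076 CPM) and the 6 macrophage genes all lower (median -0.29; 2196 to 4171 CPM against 3278 to 4030 CPM). The 6 endothelial genes were all higher (median 0.33), and the 6 skeletal muscle genes (median -0.37) and the 4 erythroid genes (median -0.78) all lower. The fit over all libraries with the skeletal muscle score gave 38 of 41 genes higher with a median of 0.36. The part of the keratinocyte, macrophage, endothelial, skeletal muscle and erythroid genes in the result was not tested.

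**Figure D4:**
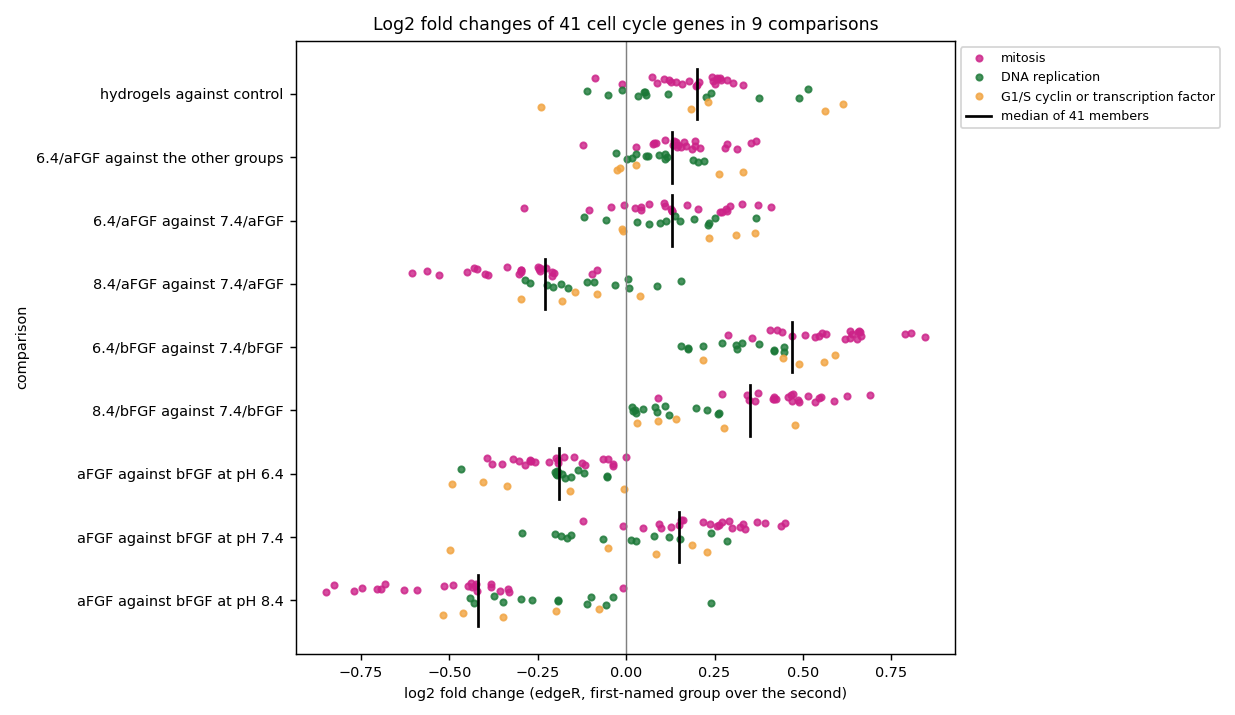
Log2 fold change in edgeR (x axis) of each of the 41 genes in 9 comparisons (y axis); points are genes, coloured as mitosis, DNA replication or G1/S genes, and the black bar is the median of the 41. All 41 points lie above 0 for 6.4/bFGF and for 8.4/bFGF against 7.4/bFGF (medians 0.47 and 0.35), 40 lie below 0 for aFGF against bFGF at pH 8.4 (median -0.42), and the other comparisons have medians between -0.23 and 0.20.

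The growth factors were compared at each pH. At pH 6.4 all 41 genes were lower with aFGF than with bFGF, with a median log2 fold change of -0.19 (all genes: 0.01, 51.8% higher with aFGF). An unadjusted p below 0.05 was found for 3 genes (all genes: 8.16%), and 4 genes, Bub1, Hmgb2, Cdc6 and E2f1, did not overlap (all genes: 14.8%). edgeR called 0% of all genes and DESeq2 no member. E2f1 gave -0.34 ± 0.12 (adjusted p = 0.598), Ccne2 -0.49 ± 0.19 (adjusted p = 0.598) and Bub1 -0.39 ± 0.16 (adjusted p = 0.604). Bub1 measured 14.0, 14.9 and 12.9 CPM with aFGF and 18.9, 20.8 and 14.9 CPM with bFGF, so that the groups met at the rounded value of 14.9 CPM. Without 6.4/aFGF replicate 3 the median was -0.12, with 1 gene below 0.05. The count was also 1 without 6.4/aFGF replicate 2, and it was 0 without 6.4/bFGF replicate 2. It was also 0 in the fit over all 21 libraries, with and without the skeletal muscle score. The 6 skeletal muscle genes were all higher with aFGF (median 1.40; 727 to 13222 CPM against 1487 to 2232 CPM), as were the 4 adipocyte genes (median 1.71; 276 to 930 CPM against 76.8 to 309 CPM), the 4 erythroid genes (median 1.25; 145 to 248 CPM against 67.0 to 83.0 CPM) and the 7 basal keratinocyte genes (median 0.35), and the 6 fibroblast genes were all lower (median -0.30; 39446 to 51614 CPM against 39737 to 71594 CPM). The part of these marker genes in the result was not tested.

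At pH 7.4 the direction was mixed, with 31 of 41 genes higher with aFGF (all genes: 48.3%) and a median of 0.15. None had an unadjusted p below 0.05 (all genes: 13%), edgeR called 0% of all genes and DESeq2 no member. Pcna was higher and Mcm3 and Mcm6 were lower without overlap, 3 of 41, against 20.5% of all genes. Ccnb2, the cyclin B2 gene, measured 20.3, 20.4 and 25.8 CPM with aFGF and 14.3, 13.6 and 21.3 CPM with bFGF (log2 fold change 0.45 ± 0.21, adjusted p = 0.405). E2f1 gave -0.50 ± 0.26 (adjusted p = 0.436) and Mki67 0.44 ± 0.23 (adjusted p = 0.446). Mitosis genes had a median of 0.26 and replication genes one of 0.01. The direction turned without 7.4/aFGF replicate 3, with 18 genes higher and a median of -0.02, and the median was 0.02 without 7.4/bFGF replicate 1. The count below 0.05 was 2 without 7.4/aFGF replicate 2 or 3 and 4 without 7.4/bFGF replicate 3. Among the 7.4/aFGF libraries, T and NK cell genes were high in replicate 1 alone (mean log2 CPM 4.06, against 1.28 and 1.20 in replicates 2 and 3). The 6 T and NK cell genes (median 2.11; 15.5 to 109 CPM against 13.8 to 15.3 CPM), the 5 bone marrow granulocyte precursor genes tested (median 1.95) and the 7 basal keratinocyte genes (median 0.43; 2331 to 4454 CPM against 1796 to 3076 CPM) were all higher with aFGF, and their part in the result was not tested. The 6 skeletal muscle genes were all lower (median -0.76), and with their score in the fit over all libraries 32 genes were higher with a median of 0.16. The part of the skeletal muscle genes in the result was not tested either.

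At pH 8.4 the genes were lower with aFGF in 40 of 41 cases (all genes: 48.6% higher), with a median of -0.42, against -0.01 over all genes. The exception was Pcna. The median was -0.45 for the 23 mitosis genes, all lower, and -0.19 for the 13 replication genes. There were 12 genes with an unadjusted p below 0.05, in a comparison in which 21.1% of all genes had one, and 7 that did not overlap, against 27.7% of all genes, so the number of non-overlapping members was below the share over all genes. edgeR called 0.00665% of all genes, none of them a member, and DESeq2 called 3 members, Cenpf, Top2a and Tpx2. The share of all genes that DESeq2 called is not given here, so these calls are not read as a result about the members.

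Cenpf gave a log2 fold change of -0.75 ± 0.19 (adjusted p = 0.128 in edgeR and 0.0187 in DESeq2). Tpx2, the activator of Aurora A kinase on the spindle, measured 21.3, 21.4 and 30.4 CPM with aFGF and 34.8, 55.8 and 40.7 CPM with bFGF (-0.85 ± 0.22, adjusted p = 0.13 in edgeR and 0.0172 in DESeq2). Top2a gave -0.77 ± 0.21 (adjusted p = 0.135 in edgeR and 0.0216 in DESeq2). In all 3 genes the groups did not overlap. The other cell cycle genes come from the same libraries and add no independent support. Of them, 47 of 49 further mitosis genes were lower (median -0.44), 29 of 32 further replication genes were lower (median -0.33), and 9 of 19 inhibitors were higher (median -0.09). Cdkn1a was among those with a higher mean, at 373.3, 223.7 and 284.5 CPM with aFGF and 132.4, 196.4 and 165.2 CPM with bFGF (0.83 ± 0.22, adjusted p = 0.134).

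Both 8.4 groups hold a library with genes of another tissue. Without the 3 libraries that hold cartilage, liver and ovary genes, which leaves 2 libraries in each group, 12 of the 41 genes were higher with aFGF, the median was -0.17 and no gene had an unadjusted p below 0.05. The median was -0.21 without 8.4/bFGF replicate 2 alone, with 3 genes below 0.05. That count was 3 without 8.4/aFGF replicate 1, 4 without 8.4/aFGF replicate 2, 7 without 8.4/bFGF replicate 3 and 24 without 8.4/aFGF replicate 3. The 6 macrophage genes were all higher with aFGF (median 0.44; 3441 to 5118 CPM against 2196 to 4171 CPM), the 5 neutrophil genes all higher (median 0.57; 4091 to 10333 CPM against 3346 to 8811 CPM) and the 6 fibroblast genes all lower (median -0.30; 32663 to 48304 CPM against 39006 to 67707 CPM), as were the 6 endothelial genes (median -0.28). Their part in the result was not tested.

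Whether the effect of pH differed between the growth factors was tested directly as an interaction. For the step from pH 7.4 to 6.4, the interaction was below 0 for 40 of 41 genes, with a median of -0.35 on the log2 scale (all genes: -0.02, 48% above 0). A value below 0 means that the log2 change, with its sign, was lower with aFGF than with bFGF. Only Hmgb2 had an unadjusted p below 0.05 (-0.58 ± 0.24, adjusted p = 0.808), against 6.09% of all genes, and it was followed by Cdt1, which licenses origins (-0.39 ± 0.21, adjusted p = 0.831), and Ccne1 (-0.60 ± 0.32, adjusted p = 0.831). edgeR called 0% of all genes and DESeq2 no member. The median was -0.21 without 7.4/aFGF replicate 3 and -0.23 without 7.4/bFGF replicate 1, and the count below 0.05 was 0 to 2 over the fits that left out a library.

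For the step from pH 7.4 to 8.4 the interaction was below 0 for 38 of 41 genes, with a median of -0.59 (all genes: 0.00, 49.9% above 0). It was -0.74 at the median of the 23 mitosis genes and -0.29 at that of the 13 replication genes. An unadjusted p below 0.05 was found for 12 of 41 genes, against 4.73% of all genes, while edgeR called 0% of all genes and DESeq2 no member. Cenpf (-1.09 ± 0.32), Mki67 (-1.08 ± 0.34) and Bub1b (-1.11 ± 0.36) had the smallest p, each with an adjusted p of 0.993. Mki67 averaged 105.7 and 70.1 CPM at pH 7.4 and 8.4 with aFGF and 78.7 and 108.1 CPM with bFGF. Without the 3 libraries that hold cartilage, liver and ovary genes the median was -0.11, 12 genes were above 0 and none had an unadjusted p below 0.05. Without 7.4/aFGF replicate 3 alone the median was -0.34 with 4 genes below 0.05, and without 8.4/aFGF replicate 3 the count was 23. It was 4 without 8.4/aFGF replicate 1 or 8.4/bFGF replicate 2, and 5 without 8.4/aFGF replicate 2 or 7.4/bFGF replicate 1.

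A test for any difference among the 7 groups called 0.114% of all genes in edgeR and none of the 41. DESeq2 called 5 of the 41, Bub1, Cdk1, Rrm1, Top2a and Tpx2. The share of all genes that DESeq2 called is not given here, so its calls are not set against it. An unadjusted p below 0.05 was found for 8 genes, close to the 19.3% of all genes. Bub1 had the smallest (adjusted p = 0.113 in edgeR and 0.00113 in DESeq2). It measured 10.6, 9.10 and 12.0 CPM in control, 8.92, 9.82 and 13.4 in 7.4/aFGF, 7.59, 7.81 and 12.0 in 8.4/aFGF, 9.42, 11.6 and 14.2 in 7.4/bFGF and 12.9, 16.6 and 14.4 in 8.4/bFGF, beside the 6.4/aFGF and 6.4/bFGF values given above. Rrm1 followed (adjusted p = 0.156 in edgeR and 0.00895 in DESeq2) and then Cdk1 (adjusted p = 0.179 in edgeR and 0.022 in DESeq2). For these 3 genes 6.4/bFGF had the highest mean of the 7 groups, and the lowest was in 8.4/aFGF for Bub1 and Rrm1 and in 7.4/bFGF for Cdk1. Without 6.4/bFGF replicate 2 the number of genes with an unadjusted p below 0.05 was 3, it was 4 without 8.4/aFGF replicate 1, 5 without 6.4/bFGF replicate 1 or 8.4/bFGF replicate 3, 13 without 7.4/aFGF replicate 3 and 15 without 8.4/aFGF replicate 3.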

How the data were processed

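RNA was extracted with TRIzol from wound tissue and libraries were made with a stranded TruSeq mRNA kit. The authors deposited, per library, a raw read count for each gene and an FPKM value, which equals the count divided by a gene length and by the library's total (checked on 13699 genes, spread of the length at most 6.01e-06%). The submitters' processing notes list the build GRCm39. The aligner, counter and annotation are not given in the sources used here, and the paper names no test for the sequencing. Its thresholds were used.

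Tests on the counts used edgeR 4.0.16 under R 4.3.3 (default filter on low counts by group, TMM, quasi-likelihood test, Benjamini-Hochberg adjustment over all genes tested). Pairwise fits held the libraries compared, and those over 7 groups held all 21. CPM values are TMM-scaled over 21 libraries, and log2 CPM used a prior count of 2. The SE is the log2 fold change divided by the root of F. Alternatives were DESeq2 1.42.0, RLE normalization, no filter on low counts, all libraries in the fit, a replicate block, no fold change threshold, limma 3.58.1 on log2(FPKM + 1) and log2(FPKM + 0.1), with and without a minimum of 1 FPKM, leaving out each library, and leaving out the 3 libraries with cartilage, liver and ovary genes. A skeletal muscle covariate was added after seeing the data. The edgeR script was tested on simulated data: of genes changed 2-fold it recovered 58.2% for hydrogels against control, 23.5% for 6.4/bFGF against 7.4/bFGF and 25.3% for aFGF against bFGF at pH 8.4, and of genes changed 8-fold it recovered 95.9%, 87.9% and 92.8%.

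The members and lists were chosen with earlier results of these data known. Values in every library are given for 10 members set by name (Mki67, Top2a, Ccnb1, Cdk1, Mcm5, Pcna, Rrm2, Ccne1, E2f1 and Foxm1), and each comparison names the 3 members with the smallest unadjusted p and any called. Of the related lists, Ccnd1, Cdkn1a and the pair with the smallest p against control are named. A RefSeq table (assembly GRCm38.p6), used for names only, held all 41 symbols. Libraries of a group differed by more than counting noise (chi-square per gene of at least 16.7). Intervals for single counts would cover counting error only, so errors are SDs over libraries.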

Additional observations from a re-analysis of the deposited data

How the results depend on the processing

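The count of called members was 0 in edgeR in all 12 comparisons and remained 0 under RLE normalization, without the filter on low counts, in fits over all 21 libraries, without a fold change threshold, in limma on FPKM and in every fit that left out a library (0 to 0) or the 3 libraries with other tissues. DESeq2 differed. It called 1 member in 6.4/bFGF against 7.4/bFGF, 3 in aFGF against bFGF at pH 8.4 and 5 for any difference among the 7 groups. The cause was not tested, and the share of all genes that DESeq2 called is not given here. Of 675 alternative values of the 3 genes named in each of the 11 comparisons with a fold change, 671 kept their direction and side of the threshold, 4 passed it and none reversed. These genes had the smallest p in the same data and none was called, so they were likely to keep both. The members as a set changed direction in some comparisons. Without the 3 libraries with other tissues, 28 instead of 5 of the 41 were higher for 8.4/aFGF against 7.4/aFGF. For aFGF against bFGF at pH 7.4 it was 18 instead of 31. In the test for any difference, which has no direction and is not among the 675, Bub1, Rrm1 and Cdk1 passed in DESeq2.

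Replicate numbers gave no uniform pairing of the libraries. Deviations from the group means of same-numbered libraries correlated at -0.638 to 0.423 (63 pairs, median 0.009, 14 over 0.1). A library correlated best with its own number in 51 of 126 cases. With 3 libraries a group, this check cannot exclude a shared replicate effect. With the replicate number as a block, 0 members were called in each comparison, while calls over all genes went from 1 to 2 for hydrogels against control and from 18 to 10 for any difference. Members with an unadjusted p below 0.05 were then 13 instead of 3 for 8.4/aFGF against 7.4/aFGF, 14 instead of 5 for 8.4/bFGF against 7.4/bFGF and 21 instead of 12 for the interaction at pH 8.4. The share of all genes below 0.05 with the block is not given here, so these counts are no result about the members.

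With 3 libraries a group, 2-fold changes were often missed on simulated data, so a count of 0 does not show equal levels. With the muscle covariate, 41 of 41 members were higher in 6.4/bFGF than in 7.4/bFGF. The covariate is a linear term added after seeing the data, and muscle content differed between these groups. It does not separate muscle content from treatment, and no conclusion on muscle is drawn from it.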

Other observations

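The genes most like Mki67 across the 21 libraries were almost entirely of late cell cycle. Of 15810 other genes, the 100 with the highest Spearman correlation to Mki67 (at least 0.77) held 18 of the 41 members, 16 of them mitosis genes and none of them a replication gene, and 32 genes of the further mitosis and replication lists. The other 50 belong to none of the lists and were named after their values were seen. They were led by Ckap5 (0.93), a microtubule polymerase of the spindle, Knl1 (0.91), a scaffold of the kinetochore, and Kif20b (0.90), a kinesin of cytokinesis. Over all genes the median correlation was -0.01 and 6.52% were above 0.5, while 32 of the 40 other members were.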
